A study of Mus musculus with 6 samples.

Results

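The lysosome is the acidic organelle in which cells take apart proteins, glycans, sulfated sugars and lipids. The genes described here encode its hydrolases, among them the cathepsins, together with proteins of its limiting membrane and regulators of the organelle. They are 39 of the 55421 genes in the files, and each of the 39 symbols matched a single row. The list was made by symbol and not by a cut on any measured value, but with earlier results of these data known. Their mRNA was compared between the cerebral cortex of 3 mice of 6 months (mice 10, 11 and 17) and of 3 mice of 24 months (mice 2, 4 and 5). All 6 animals were male wild-type C57BL/6J mice on a standard diet, killed by cervical dislocation under isoflurane. The whole microdissected cortex was powdered, so the RNA comes from neurons, glia, vessels and blood together, and fewer cells of a type cannot be told apart from less RNA per cell. Each library was made from a different mouse with a low-input kit, and the counts per library summed to between 29495379 and 36494240.

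Most soluble lysosomal enzymes are made in the endoplasmic reticulum, tagged with mannose 6-phosphate in the Golgi and carried to the lysosome by receptors that recognise the tag. The transcription factor TFEB and its relatives switch on many lysosomal genes together through a short E-box-containing promoter motif known as CLEAR. Loss of single hydrolases causes lysosomal storage diseases, many of which injure neurons, and in the brain the organelle is prominent in both neurons and microglia. Microglia, the resident macrophages of the brain, hold high levels of cathepsin S.

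All 39 genes were detected in every mouse, with at least 79 counts each. Levels are given as TPM, the deposited unit that divides by gene length and library size and so allows genes to be compared with each other. Psap, the precursor of the saposins that help hydrolases reach sphingolipids, was the highest. It had 2150, 2214 and 2048 TPM in the 6-month mice 10, 11 and 17 and 1724, 1884 and 1971 TPM in the 24-month mice 2, 4 and 5. That placed it at rank 32 of all genes by mean TPM, and Psap alone made up 34.6% of the summed TPM of the 39 genes. Ctsb, a cysteine protease, followed with a mean of 662 TPM, then the membrane glycoprotein gene Lamp1 with 465, the aspartic protease gene Ctsd with 330, Ctss with 294 and the asparaginyl endopeptidase gene Lgmn with 288. At the other end stood Galc with 5.77 TPM, Tfeb with 3.80 and the heparan sulfatase gene Sgsh with 2.75. The neighbours Ctss and Lgmn overlapped between mice, as did Ctsd with Ctss when the 24-month mouse 2 was included. The summed TPM of the 39 genes lay between 5784 and 6081 in the young mice and between 5361 and 5756 in the old mice. Psap weighs heavily in this sum, and the groups of genes differed. On TPM the lipid genes (with Psap), the glycosidases and the sulfatases each summed lower in all old mice. The cysteine cathepsins summed higher on TPM, at 1240 to 1249 in the old mice against 1172 to 1225 in the young mice. The other proteases, the membrane proteins and the regulators overlapped between ages on TPM. The direction depended on the unit. On counts scaled to a common library size by the TMM method (CPM, used below), each of these groups summed lower in all old mice. There the cysteine cathepsins summed to 1341 to 1420 in the old mice against 1471 to 1591 in the young mice.

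**Figure D1:**
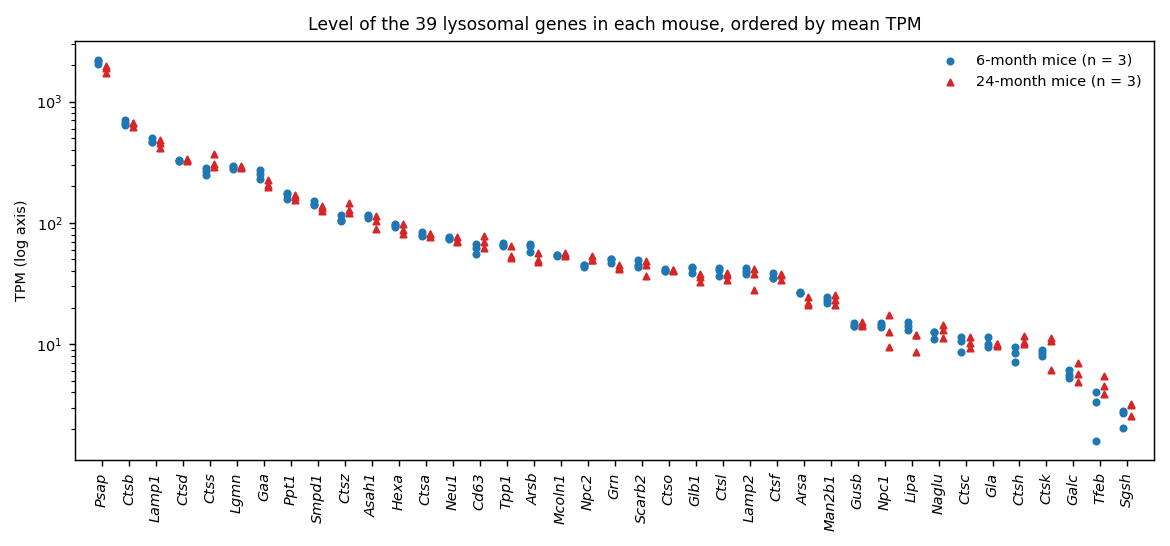
Level of each of the 39 genes in each mouse, in TPM on a log axis, ordered by the mean over the 6 mice. Circles are 6-month mice and triangles 24-month mice. Psap stands highest and Sgsh lowest, and for most genes the mice of both ages lie close together compared with the distance between genes.

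A feature that the choice by name did not use is the sequence of the promoters. RefSeq promoter sequences (GRCm38.p6, 250 bases before and 50 after the gene start) were at hand for 35 of the 39 genes (not Asah1, Ctsb, Ctsh and Npc1) and were searched for CACGTG, the E-box core of CLEAR, which reads the same on both strands. It was found in 13 of the 35 (37.1%), against 8.09% of 27025 genes with a promoter and 12.0% of 9792 such genes in the same range of expression as the 39. The longer form TCACGTGA, which contains the core and is also its own reverse complement, was found in 4 of the 35 (11.4%), against 1.12% and 2.27%. These shares are a description and no test was made of them. CLEAR is known from lysosomal genes, as said above, so higher shares in such a list are not an independent finding. The windows below, of 30 bases with the core in capitals, are shown because they carry the motif in 3 of the genes that are lower at 24 months (Arsa, Gaa and Glb1) and in 4 abundant or membrane genes that are not called (Lamp1, Ctsd, Lgmn and Mcoln1).
Arsa (chr15:89477423-89477452, minus strand): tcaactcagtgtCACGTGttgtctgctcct
Gaa (chr11:119267811-119267840, plus strand): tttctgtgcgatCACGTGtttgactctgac
Glb1 (chr9:114401018-114401047, plus strand): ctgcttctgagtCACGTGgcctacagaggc
Lamp1 (chr8:13159088-13159117, plus strand): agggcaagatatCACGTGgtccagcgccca
Ctsd (chr7:142387908-142387937, minus strand): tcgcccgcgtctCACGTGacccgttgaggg
Lgmn (chr12:102439124-102439153, minus strand): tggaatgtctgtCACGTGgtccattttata
Mcoln1 (chr8:3500462-3500491, plus strand): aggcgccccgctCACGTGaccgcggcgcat
The cores shown start at -16 bases from the gene start in Arsa, -140 in Gaa, -48 in Glb1, -61 in Lamp1, -98 in Ctsd, -49 in Lgmn and -45 in Mcoln1. Those of Ctsd and Mcoln1 lie in the longer form. Lamp1 has 4 copies of the core in its promoter sequence. The 13 genes with the core had a median log2 fold change of -0.14 between the ages, and the 22 without it also had a median of -0.14.

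Age was tested with edgeR's quasi-likelihood test over 32905 genes, on counts scaled by the TMM method, and p-values were adjusted over all of these genes by the Benjamini-Hochberg method. They set the difference between the ages against the spread between mice of the same age, 3 per age. None of the 39 passed the study's threshold of 1% FDR, nor did any other gene (0.0% of all genes tested). By the likelihood ratio test of edgeR, 0 of the 39 passed 1% FDR, against 0.766% of all genes that were called lower and 4.41% called higher at 24 months. A gene is called here where it passed 10% FDR in the quasi-likelihood test. By that rule 8 of the 39 (20.5%) were lower at 24 months, where 8.33% of all genes were, and 0 were higher, where 10.0% of all genes were. At an unadjusted p under 0.05, 11 of the 39 (28.2%) were lower and 0 higher, against 13.1% and 17.6% of all genes. The median log2 fold change of all genes tested was 0.15, many of them of low expression, so the 12706 genes tested whose mean lies in the range of the 39, from 3.31 to 1503 CPM (counts scaled to a common library size), are the closer background. Of those, 21.1% were called lower and 1.11% higher, so the share of lysosomal genes called lower was near that of other expressed genes. The median log2 fold change, 24 against 6 months, was -0.16 over the 39 genes and -0.18 over the genes of like level.

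In single mice, 22 of the 39 genes (56.4%) had all 3 mice of 24 months below all 3 of 6 months on TMM-scaled CPM, and 1 gene (2.56%) had them all above. The same held for 16.2% and 20.0% of all genes tested and for 39% and 2.61% of the genes of like level. The scaling moved all of these values. When only library totals were used for scaling, which moved the median of all genes from 0.15 to 0.33, the median of the 39 turned from -0.16 to 0.03, the sign turned in 15 of the 39, and 0 of the 8 genes called lower passed 10% FDR. On that scale 3 genes (7.69%) lay all below and 9 (23.1%) all above, against 11.2% and 11.3% of the genes of like level. On deposited TPM, 9 of the 39 lay all below and 4 all above, against 20.8% and 6.3% of the genes of like level. Psap, Lipa and Arsa lay below in all 3 old mice, and Npc2 above, on each of the 4 scales compared (TMM, DESeq2 size factors, library totals and TPM). The median of the 39 minus that of the genes of like level was 0.01 with TMM factors, 0.02 with library totals and 0.01 on TPM.

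**Figure D2:**
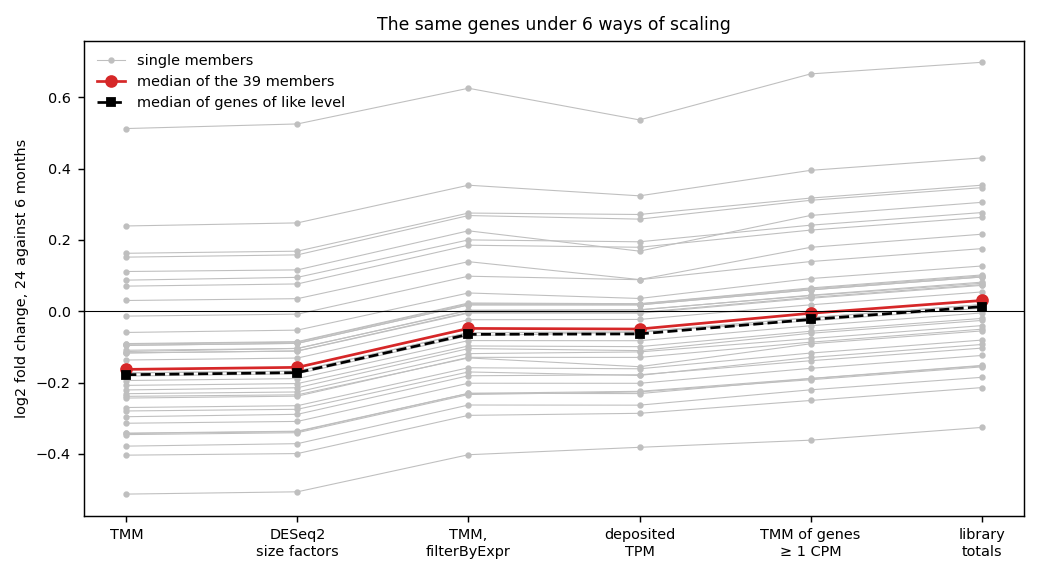
Log2 fold change (24 against 6 months) of the 39 genes under 6 ways of scaling. Grey lines are single genes, red is their median and the dashed black line is the median of the genes of like level. The red and black lines move together from below 0 with TMM factors to just above 0 with library totals, with 0.01 to 0.02 between them in each of the 6.

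Among the 7 genes of lipid breakdown and export, Psap and Lipa were called lower. For comparison with this and the following groups, 8.33% of all genes tested and 21.1% of those of like level were called lower. Psap (ENSMUSG00000004207.14, chr10:60277627-60302597, GRCm38) had 1688, 1717 and 1595 CPM in the 6-month mice 10, 11 and 17 and 1242, 1358 and 1421 CPM in the 24-month mice 2, 4 and 5. The ages did not overlap, and the level fell by 19.6%, a log2 fold change of -0.31 (standard error, SE, 0.09, adjusted p = 0.0632, edgeR's quasi-likelihood test). Lipa (ENSMUSG00000024781.16, chr19:34492318-34527474) encodes lysosomal acid lipase, which frees cholesterol and fatty acids from endocytosed lipids. It had 25.5, 29.3 and 27.3 CPM at 6 months and 15.2, 21.3 and 21.0 CPM at 24 months, with mouse 2 the lowest. This was the largest fall among the 39 genes in the TMM-scaled fit, a log2 fold change of -0.51 (SE 0.14, adjusted p = 0.0636, same test). Of the genes of like level, 4.2% had a lower fold change than Lipa and 23.7% than Psap. For the other genes called lower, described below, this share was 11.5% (Arsb), 14.2% (Gaa), 18.6% (Arsa), 19.1% (Glb1), 19.2% (Tpp1) and 26.8% (Grn).

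The other 5 genes of lipid handling were not called. Asah1, acid ceramidase, had a log2 fold change of -0.27 (adjusted p = 0.123, quasi-likelihood test), and Smpd1, acid sphingomyelinase, of -0.24 (adjusted p = 0.101), both with all old mice below all young mice. Ppt1, which removes palmitate from proteins, had -0.17. The partners in cholesterol export from the lysosome had values of opposite sign. The soluble carrier gene Npc2 had 67.6, 69.2 and 69.2 CPM at 6 months and 75.7, 70.2 and 70.4 CPM at 24 months, a log2 fold change of 0.07 (SE 0.09, adjusted p = 0.602). The membrane transporter gene Npc1 had 46.5, 47.5 and 44.1 CPM at 6 months and 27.98, 37.2 and 51.8 CPM at 24 months, so that mouse 5 lay above and mice 2 and 4 below the young mice. Its log2 fold change of -0.24 (SE 0.19, adjusted p = 0.403) was within the spread between mice. It was -0.04 when mouse 2 was left out and -0.49 when mouse 5 was. Without mouse 5, Npc1 passed 10% FDR (adjusted p = 0.048, quasi-likelihood test), as did Asah1. In that fit 7997 of the 31275 genes tested passed 10% FDR in either direction.

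Of the glycosidases, which trim sugars from glycogen, glycolipids and glycoproteins, 2 of 9 were called and all 9 had a fitted value below 0 with TMM factors, 3 of them (Gaa, Glb1 and Hexa) also with library totals. With TMM factors, 21.1% of the 12706 genes of like level were called lower, and 9943 had a fitted value below 0. Gaa (ENSMUSG00000025579.14, chr11:119267887-119285454), acid alpha-glucosidase, which degrades glycogen, had 317, 368 and 343 CPM at 6 months and 285, 258 and 248 CPM at 24 months. Its log2 fold change was -0.38 (SE 0.10, adjusted p = 0.0578, quasi-likelihood test), the smallest adjusted p of the 39. Here mouse 2 was the highest of the old mice, whereas in Lipa it was the lowest. Glb1 (ENSMUSG00000045594.10, chr9:114401076-114474898) encodes beta-galactosidase, the enzyme behind the histochemical stain used for senescent cells. It had 36.6, 36.6 and 33.0 CPM at 6 months and 25.7, 29.9 and 28.3 CPM at 24 months, a log2 fold change of -0.34 (SE 0.11, adjusted p = 0.0753). The age groups of Glb1 did not overlap.

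The beta-hexosaminidase subunit gene Hexa had a log2 fold change of -0.22 (adjusted p = 0.174, quasi-likelihood test), Gla, alpha-galactosidase A, of -0.18, and the sialidase gene Neu1 of -0.16. These 3 also had all old mice below all young mice on TMM-scaled CPM. Man2b1, Gusb, Galc and Naglu, which act on mannosides, glucuronides, galactosylceramide and heparan sulfate, lay between -0.12 and -0.01 with overlapping ages. Galc, which is needed for the turnover of myelin lipids, lay between 22.6 and 26.0 CPM in the young mice and between 19.2 and 27.6 CPM in the old mice.

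The sulfatases, which remove sulfate groups from glycosaminoglycans and sulfatide, held 2 called genes of 3, where 21.1% of the genes of like level were called lower. Arsb (ENSMUSG00000042082.7, chr13:93771630-93943016) had 110, 114 and 98.6 CPM at 6 months and 75.4, 79.0 and 89.98 CPM at 24 months, a log2 fold change of -0.40 (SE 0.10, adjusted p = 0.0587, quasi-likelihood test). Arsa (ENSMUSG00000022620.14, chr15:89472476-89477425), whose product degrades the myelin lipid sulfatide, had 28.2, 27.2 and 27.4 CPM at 6 months and 20.3, 21.1 and 23.8 CPM at 24 months. Its log2 fold change was -0.35 (SE 0.11, adjusted p = 0.0745). In both sulfatase genes the ages did not overlap, and mouse 5 lay nearest to the young mice. Noncoding or antisense genes share 32.3% of the exonic bases of Arsb and 18.8% of those of Arsa on the opposite strand, and the counting, run with the default for strand, did not separate strands. Annotated genes on the opposite strand also share 26.8% of the exonic bases of Ctsl, 21.6% of those of Sgsh and 12.8% of those of Ctsb and of Hexa. Pltp shares 10.5% of those of Ctsa, Grtp1 9.31% of Lamp1, and a further noncoding gene 7.67% of Arsb. On the same strand, Tmppe shares 5.49% of those of Glb1. Smaller parts are shared in some other members. Sgsh, the least expressed of the 39, had a log2 fold change of 0.11 (SE 0.19).

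Of the cathepsins and other proteases, Tpp1 alone was called. Tpp1 (ENSMUSG00000030894.5, chr7:105744811-105752235) encodes tripeptidyl peptidase 1, whose loss causes a form of neuronal ceroid lipofuscinosis. It had 95.0, 98.8 and 96.5 CPM at 6 months and 69.6, 72.7 and 86.7 CPM at 24 months, a log2 fold change of -0.34 (SE 0.10, adjusted p = 0.0733, quasi-likelihood test). The old mice lay below the young mice, mouse 5 nearest to them.

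The abundant cathepsins differed less. Ctsb (ENSMUSG00000021939.8, chr14:63122462-63145923) had 1226, 1150 and 1110 CPM at 6 months and 977, 1057 and 1059 CPM at 24 months, a log2 fold change of -0.17 (SE 0.08, adjusted p = 0.194) that became 0.02 with library totals. Ctsd (ENSMUSG00000007891.16, chr7:142375911-142388038) had 223, 217 and 217 CPM at 6 months and 201, 205 and 208 CPM at 24 months, a log2 fold change of -0.10 (SE 0.08, adjusted p = 0.434). On TPM the ages of Ctsd overlapped, at 325 to 331 against 326 to 337. Gm49369, an annotated gene on the same strand, shares 34.4% of the exonic bases of Ctsd, so its reads are uncertain. Ctsa, which protects beta-galactosidase and sialidase in a complex, and Lgmn had log2 fold changes of -0.14 and -0.10, both turning positive with library totals.

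The 9 cysteine cathepsins had values on both sides of 0, and none was called. Ctsl, Ctso, Ctsc and Ctsf had log2 fold changes from -0.23 to -0.11. Ctss (ENSMUSG00000038642.10, chr3:95526786-95556403), a cathepsin of antigen-presenting cells and microglia, had 104, 96.1 and 109 CPM at 6 months and 131, 103 and 109 CPM at 24 months. The ages overlapped, and its log2 fold change was 0.15 (SE 0.11, adjusted p = 0.372, quasi-likelihood test). It was 0.27 when the 24-month mouse 4 was left out and 0.05 when mouse 2 of the same age was. Ctsz, a carboxypeptidase, had 43.5, 47.5 and 42.1 CPM at 6 months and 45.9, 55.1 and 48.0 CPM at 24 months, a log2 fold change of 0.16 (adjusted p = 0.317). Ctsh, an aminopeptidase, had 9.21, 10.8 and 12.1 CPM at 6 months and 12.2, 13.8 and 11.9 CPM at 24 months, a log2 fold change of 0.24 (adjusted p = 0.261). On deposited TPM the old mice lay above the young mice in each of Ctss, Ctsz and Ctsh. With library totals Ctsz and Ctsh passed 10% FDR, with log2 fold changes of 0.35 and 0.43. In that fit 4436 of 32905 genes passed 10% FDR in either direction. The median log2 fold change there was 0.33 over all genes and 0.01 over the genes of like level. In the TMM-scaled fit, 90.3% of the genes of like level had a lower fold change than Ctss, 90.8% than Ctsz and 94.2% than Ctsh. Ctsk, known from bone-resorbing cells, had 3.86, 3.42 and 3.60 CPM at 6 months and 2.43, 4.22 and 4.44 CPM at 24 months.

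**Figure D3:**
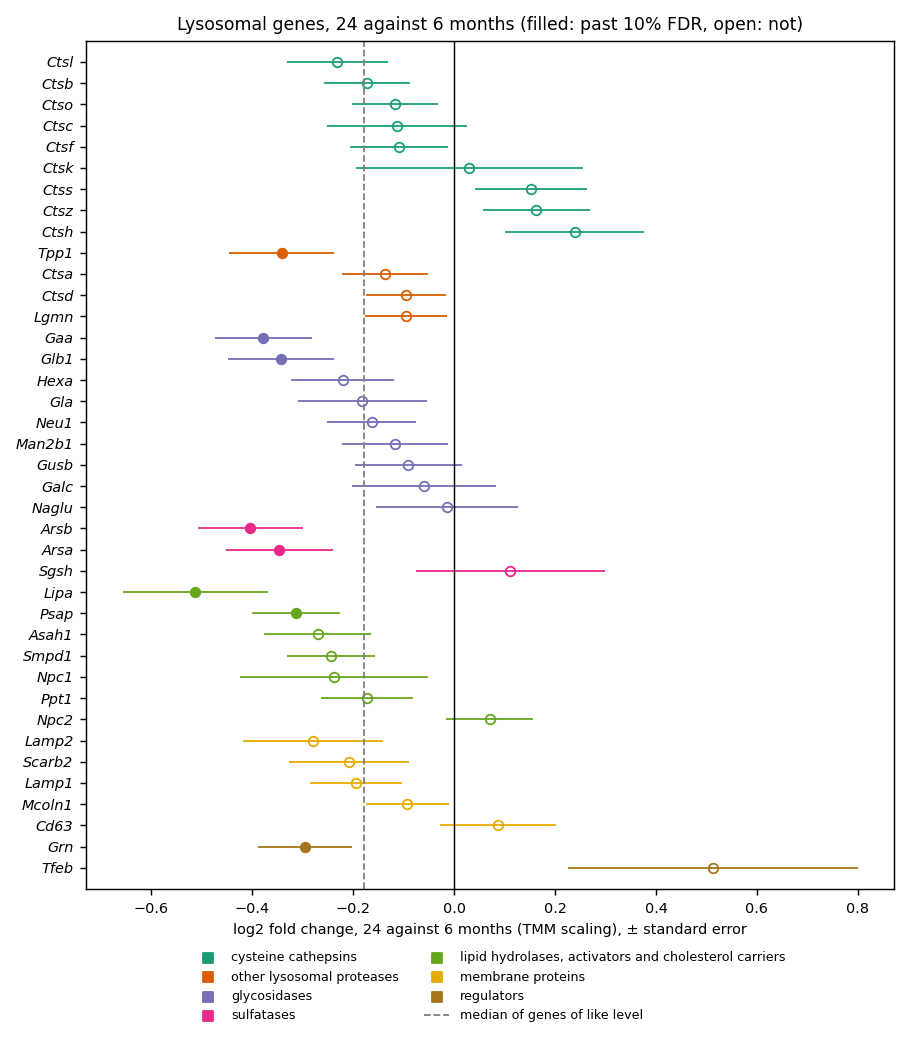
Log2 fold change (24 against 6 months, TMM scaling) of each of the 39 genes with its standard error, grouped by role. Filled circles passed 10% FDR in edgeR's quasi-likelihood test and open circles did not. The dashed line marks the median of the genes of like level, at -0.18. The 8 filled genes all lie to its left, and Ctss, Ctsz, Ctsh and Tfeb lie farthest to its right. With library totals all points shift to the right and none of the 8 is called.

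None of the membrane proteins was called. Lamp1 (ENSMUSG00000031447.7, chr8:13159161-13175338), a glycoprotein that lines the lysosome, had 359, 380 and 351 CPM at 6 months and 291, 323 and 338 CPM at 24 months, a log2 fold change of -0.19 (SE 0.09, adjusted p = 0.175, quasi-likelihood test). On TPM its ages overlapped. Lamp2, a glycoprotein that also serves chaperone-mediated autophagy, had 110, 114 and 103 CPM at 6 months and 70.1, 94.9 and 105 CPM at 24 months. Mouse 2 lay far below the other 5, mouse 5 was within the young range, and the log2 fold change of -0.28 (SE 0.14, adjusted p = 0.198) moved between -0.40 (past 10% FDR, without mouse 5) and -0.12 (without mouse 2) with 1 mouse left out. Without mouse 5, 7997 of the 31275 genes tested passed 10% FDR in either direction. Scarb2, a glycoprotein of the lysosomal membrane, had a log2 fold change of -0.21, the calcium channel gene Mcoln1 -0.09 and the tetraspanin gene Cd63 0.09.

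Of the 2 regulators, 1 was called. Grn (ENSMUSG00000034708.11, chr11:102430315-102437048), the precursor of granulins, a secreted and lysosomal protein whose deficiency causes frontotemporal dementia, had 46.1, 49.3 and 49.98 CPM at 6 months and 41.2, 39.04 and 38.1 CPM at 24 months. It was called lower, with a log2 fold change of -0.30 (SE 0.09, adjusted p = 0.0786, quasi-likelihood test) and no overlap between ages. Tfeb (ENSMUSG00000023990.18, chr17:47737030-47792419) had 2.59, 5.33 and 6.50 CPM at 6 months and 5.73, 8.21 and 6.67 CPM at 24 months. The ages overlapped, and the 6-month mouse 10 stood lowest by a wide margin. Its log2 fold change of 0.51, the highest of the 39, had a standard error of 0.29 (adjusted p = 0.247) and was 0.22 without mouse 10. Protein-coding sensory receptor genes, which are not expected to be active in cortex, had 0.0224 to 0.0250 CPM per exonic kb at 6 months and 0.0532 to 0.0859 at 24 months. Tfeb had 0.458 to 1.15 and 1.01 to 1.45 CPM per exonic kb. The part of that low-level signal in the values of weakly expressed genes was not tested.

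**Figure D4:**
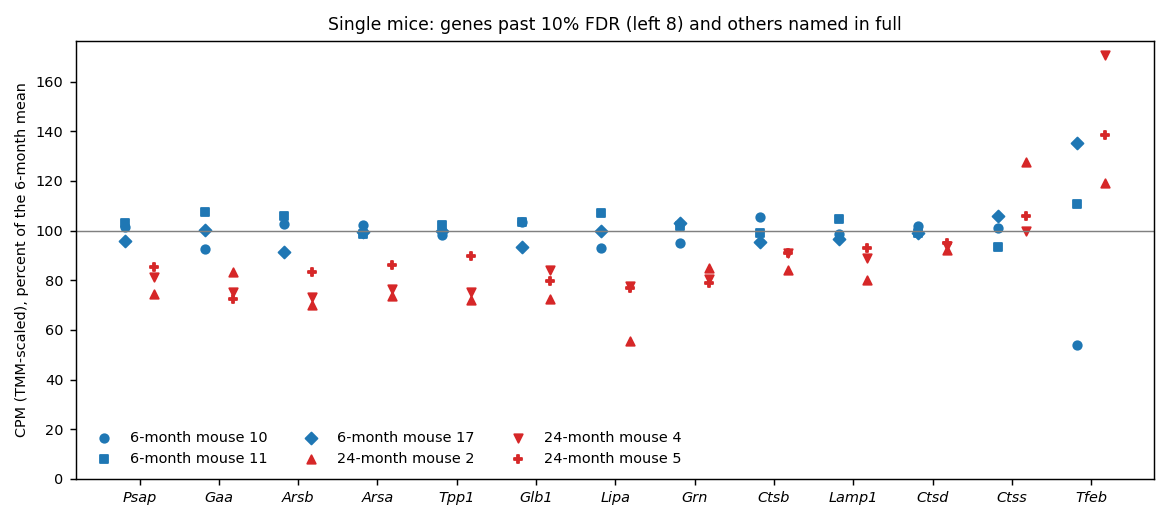
CPM (TMM-scaled) of each mouse as a percentage of the 6-month mean of the same gene. Blue symbols are the 6-month mice and red symbols the 24-month mice, with 1 symbol shape per mouse. In the first 8 genes, which passed 10% FDR, all red symbols lie below all blue ones. In Ctss and Tfeb the colours overlap, and the 6-month mouse 10 is far below the others in Tfeb.

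The calls rest on few mice. The 24-month mouse 2 had the lowest CPM of all 6 mice in 24 of the 39 genes (61.5%), against 42.5% of the genes of like level. With 1 mouse left out, the number of the 39 called lower was 0 when a 6-month mouse (10 or 11) or a 24-month mouse (2 or 4) was dropped, 1 when the 6-month mouse 17 was and 11 when the 24-month mouse 5 was. The calls over all genes moved in the same way: in either direction, 6041 genes passed 10% FDR with all 6 mice, 0 without mouse 10, 1 without mouse 11, 2476 without mouse 17, 176 without mouse 2, 0 without mouse 4 and 7997 without mouse 5. The fitted fold changes of the 8 called genes stayed below 0 in each of these fits, with Psap between -0.35 and -0.25 and Lipa between -0.58 and -0.36.

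Marker genes of the cell types in the tissue were read beside these values. Of all genes tested, 8.33% were called lower and 10.0% higher, and of the genes of like level 21.1% and 1.11%. Of 10 neuron markers, 5 were called lower and 0 higher, and their summed CPM lay between 8717 and 10108 in the young mice and between 6465 and 8256 in the old mice. Of 15 microglia markers, 1 was called lower (Csf1r, log2 fold change -0.34) and 1 higher (Tmem119, 0.34), and their summed CPM lay between 518 and 545 in the young mice and between 511 and 551 in the old mice. This overlap depended on the scale. On deposited TPM the microglia markers summed to 819 to 879 in the young mice and 907 to 1034 in the old mice. The neuron markers were lower on TPM too, at 5005 to 5690 against 4082 to 4978. Of 12 markers of activated microglia, 2 were called higher, Itgax and Ccl3, on 2 to 18 counts per mouse. None of the oligodendrocyte markers was called, but all 8 were lowest in the 24-month mouse 2, with a summed CPM of 1184 against 2280 to 3933 in the other mice. None of the markers in these 4 lists was at 0 counts in any mouse. Over all 14 marker lists, 8 of 108 genes tested were called lower and 9 higher, shares near those of all genes tested. The calls outside those 4 lists were Gfap of astrocytes (log2 fold change 0.69), Gpr17 of oligodendrocyte precursors (-0.75), Hbb-bt of red blood cells (-0.64), 3 of 5 markers of B and plasma cells and 2 of 5 of T cells, which summed to at most 4.54 and 2.87 CPM in any mouse. No marker of border macrophages, endothelial cells, pericytes and smooth muscle, fibroblasts and meninges or choroid plexus was called. The part of these cell types in the lysosomal values was not tested.

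The other genes of the pathway were counted from 7 lists. For comparison, 8.33% of all genes tested and 21.1% of the genes of like level were called lower. Called higher were 10.0% and 1.11%. Of the subunits of the vacuolar proton pump, which acidifies the lysosome and also loads synaptic vesicles, 12 of 19 were called lower with TMM factors. Its accessory subunit gene Atp6ap2 had 486, 469 and 419 CPM at 6 months and 274, 338 and 333 CPM at 24 months, a log2 fold change of -0.54 (SE 0.11, adjusted p = 0.0518, quasi-likelihood test). Atp6v0a1, the membrane subunit of the neuronal pump, had a log2 fold change of -0.46 (adjusted p = 0.0526). Atp6v0d2, the 1 subunit gene called higher, had only 2, 3 and 1 counts in the young mice and 14, 10 and 5 in the old mice.

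Of the autophagy genes, 11 of 20 were called lower and 0 higher, among them Atg12 (log2 fold change -0.47) and Vps18 (-0.40). Of the other lysosomal membrane proteins and transporters, 6 of 24 were called lower, with Mfsd8, whose loss causes a neuronal ceroid lipofuscinosis (-0.48), and the sialic acid exporter gene Slc17a5 (-0.44) at the head. Cd68, a membrane glycoprotein of macrophages and microglia, was the 1 called higher, with 11.3, 10.1 and 12.3 CPM at 6 months and 14.4, 14.2 and 14.3 CPM at 24 months, a log2 fold change of 0.35 (SE 0.12, adjusted p = 0.0928, quasi-likelihood test). Of TFEB relatives and mTORC1 genes, 5 of 22 were called lower, such as Mtor (-0.38), and 1 was called higher. The latter was Tfec, at 4, 5 and 5 counts against 16, 18 and 9. In the membrane list and the TFEB and mTORC1 list, the shares called lower were near the 21.1% of genes of like level.

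Of the 28 other lysosomal enzymes and cofactors, 0 were called, with a median log2 fold change of -0.11. Of the genes of mannose 6-phosphate tagging and sorting, 1 of 9 was called lower, the adaptor gene Gga3 (-0.33). Of the cathepsin inhibitors, 0 of the 5 tested were called, and the abundant cystatin C gene Cst3 had a log2 fold change of -0.04. Over the 7 lists, 35 of 127 genes tested were called lower and 3 higher with TMM factors, but 2 lower and 4 higher with library totals. With TMM factors, 21.1% of the genes of like level were called lower and 1.11% higher.

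**Figure D5:**
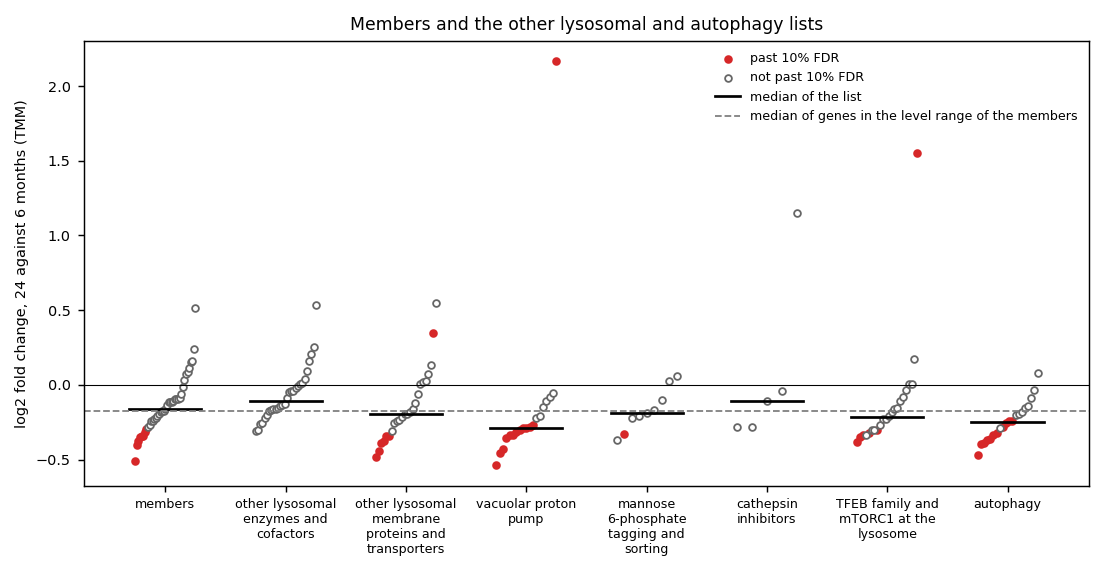
Log2 fold change (24 against 6 months, TMM scaling) of the 39 members and of the 7 other lists. Red points passed 10% FDR, open points did not, bars are medians and the dashed line is the median of the genes in the level range of the members. The vacuolar proton pump and autophagy hold most of the red points below 0. The 2 red points above 1 rest on 1 to 18 counts per mouse, and with library totals the red points below 0 drop to 2 over the 7 lists.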

How the data were processed

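RNA from the cortex of 6 mice was sequenced as single-end reads. Per the labels, the authors trimmed with Trim Galore 0.6.4, aligned to GRCm38 with STAR 2.7.3a and made the deposited gene counts with featureCounts of Subread 2.0.0. Their methods name no change to the default strand option, which counts reads on both strands together. They also state fractional counting of multi-mapped reads, yet all deposited counts are whole numbers, so how such reads were counted is uncertain. The authors also deposited TPM values, computed from counts and exonic gene lengths.

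Groups came from the age in the labels. The 32905 of 55421 genes whose counts summed to 10 or more were scaled by TMM (edgeR 4.0.16, R 4.3.3; factors 0.921 to 0.946 at 6 months and 1.04 to 1.10 at 24 months) and tested without covariates by glmQLFTest. Alternatives used the likelihood ratio and exact tests, DESeq2 1.42.0, other scalings and filters, limma 3.58.1 on log2(TPM + 1) for genes of at least 1 mean TPM, and each mouse left out. The steps were tested on simulated data. By rule, the called members, the 5 of highest mean TPM, Grn and Tfeb were given in full, with up to 3 called genes per pathway list of largest fold change. Other genes with values of their own, such as Npc1, Lamp2, Ctsh, Ctsz and Cst3, were picked after their values were seen. The members and the gene lists were chosen with earlier results of these data known.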

Additional observations from a re-analysis of the deposited data

How the results depend on the processing

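No paired analysis was possible because the mouse numbers of both ages (10, 11 and 17 against 2, 4 and 5) share none. Values are for TMM factors first. The 8 members called lower became 5 with the exact test, 4 with DESeq2, 4 with no count filter, and 0 with library totals, with TMM factors from genes of at least 1 CPM (an alternative chosen after seeing the data), with filterByExpr and with limma on TPM. They ranged from 0 to 11 with 1 mouse left out. The calls over all genes moved too. In either direction, 6041 of 32905 genes passed 10% FDR with TMM factors, 6183 with the exact test and 3048 with DESeq2. With library totals 4436 of 32905 did, and 4077 with TMM factors from genes of at least 1 CPM. With no filter 4014 of 49160 did, with filterByExpr 1538 of 20490, and with limma on TPM only 24 of 18904. Members called higher went from 0 to 2 with library totals. The members' median of -0.16 became 0.0301 with library totals, -0.0057 with TMM factors from genes of at least 1 CPM, -0.0482 with filterByExpr and -0.0499 on TPM, and ran from -0.1821 to -0.0929 with 1 mouse left out. The cause was not tested. Members with all old mice below went from 22 to 3 with library totals and 9 on TPM (22 to 28 with 1 mouse left out), and those above from 1 to 9, to 2 with DESeq2 size factors and to 4 on TPM (1 to 4 with 1 mouse left out).

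Pathway genes called lower went from 35 to 18 with the exact test, 17 with DESeq2, 2 with library totals, 5 with TMM factors from genes of at least 1 CPM, 3 with filterByExpr, 11 with no filter and 0 on TPM (0 to 41 with 1 mouse left out). Those called higher went from 3 to 0 with DESeq2, 1 with filterByExpr and 0 on TPM (0 to 2 with 1 mouse left out). Markers called lower went from 8 to 2 with library totals, 2 with TMM factors from genes of at least 1 CPM, 2 with filterByExpr, 5 with no filter and 0 on TPM (0 to 17 with 1 mouse left out). Those called higher went from 9 to 5 with filterByExpr and 0 on TPM (0 to 9 with 1 mouse left out).

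Log2 fold changes of single members turned positive with library totals in Ctsb (0.0184), Ctsc (0.0784), Ctsf (0.0815), Ctso (0.0747), Ctsa (0.054), Ctsd (0.0959), Lgmn (0.096), Gla (0.0084), Gusb (0.1017), Galc (0.1268), Naglu (0.1755), Neu1 (0.0301), Man2b1 (0.0724), Ppt1 (0.0185) and Mcoln1 (0.099). With TMM factors from genes of at least 1 CPM they turned positive in Ctsc (0.0437), Ctsf (0.0449), Ctso (0.0389), Ctsa (0.018), Ctsd (0.0599), Lgmn (0.06), Gusb (0.0653), Galc (0.0916), Naglu (0.1393), Man2b1 (0.0363) and Mcoln1 (0.063). With filterByExpr they did in Ctsc (0.0017), Ctsf (0.0031), Ctsd (0.0179), Lgmn (0.0178), Gusb (0.0231), Galc (0.0512), Naglu (0.0982) and Mcoln1 (0.021). On TPM they did in Ctsc (0.0043), Ctsf (0.0035), Ctsd (0.0177), Lgmn (0.018), Gusb (0.0211), Galc (0.0358), Naglu (0.0884) and Mcoln1 (0.0205), and with no filter in Naglu (0.0226). With 1 mouse left out the sign changed in 4 members, whose values ran from -0.21 to 0.0643 in Galc, from -0.0901 to 0.0853 in Naglu, from -0.12 to 0.27 in Ctsk and from -0.0201 to 0.23 in Sgsh. DESeq2 gave no adjusted p for 5745 genes. With 3 mice an age, the SE of the members on the log2 scale ran from 0.08 (Ctsd) to 0.29 (Tfeb). Differences larger than the SE also went uncalled, such as Lamp2 at -0.28 (SE 0.14), and the smallest called was Grn at -0.30. A gene that was not called is therefore not shown to be unchanged.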
